A study of Mus musculus with 2 samples.

Results

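Integrins are the receptors that anchor a cell to matrix and to other cells. Each one is a pair of an alpha and a beta subunit, and the short tail of the beta subunit inside the cell is held by talins and kindlins, which switch the receptor on. Integrin-linked kinase (Ilk), PINCH (Lims1) and the parvins form a complex on that tail, while vinculin and paxillin tie it to actin and to signalling. Macrophages carry the leukocyte integrins that share Itgb2, with which they adhere and take up complement-coated particles, and receptors built on Itgav, which bind matrix proteins and bridges to dying cells.

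The genes described here are every gene symbol of an integrin alpha or beta subunit in the deposited table, with talins (Tln1, Tln2), kindlins (Fermt1, Fermt2, Fermt3), Ilk, the parvins (Parva, Parvb, Parvg), Lims1, Vcl and Pxn. They were 38 of 50608 rows, with 18 alpha subunits, 8 beta subunits and 12 linkers, and all 38 had a value in both libraries. The set was chosen because the ratio of Itgb3 between these same libraries was already known to be among the lowest, so the ratios below are a description of the members and support nothing further.

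RNA of peritoneal macrophages from C57BL6J mice, pooled over males and females at a stage labelled E15.5, was sequenced in 2 libraries. The DMSO library came from cells given the solvent, and the GW3965 library from cells given a compound that activates LXR (liver X receptor), the oxysterol receptor of the nuclear receptor family. Neither dose nor time of treatment is stated in the sources used here. Since each group is 1 library, no difference has a replicate check or a p-value, and cell number, RNA per cell and treatment cannot be told apart in any of them.

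The column read as GW3965 shares only its opening letters with that sample's description. In it the LXR target Abca1 stood at 261 FPKM, against 19.9 with solvent, and the further targets Abcg1, Srebf1 and Mylip had ratios of 3.37, 3.77 and 4.95. FPKM are fragments scaled for gene length and sequencing depth, so levels can be compared between genes. The depths recovered from the steps of the values were 101866062 reads for DMSO and 75287120 for GW3965. Ratios are given with a 95% exact conditional interval, which covers counting error in these libraries only. Genes with a mean of 1 FPKM or more are called measured, which held for 11889 rows. The log2 ratio was taken after adding 1 FPKM, which understates the change of low genes, and its median over the measured rows was 0.24. Log2 ratios below are relative to that median and are called centred, and a gene counted as higher or lower at 1.5-fold on that scale.

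General macrophage markers summed to 5030 FPKM in DMSO and 6040 FPKM in GW3965, all 7 of them measured. Lyz2 alone held 4052 and 4822 FPKM of these sums. Relative to the median row 5 of the 7 were above, and Csf1r (-0.26) and Cd68 (-0.23) below. Of the 7, 1 (Mertk, 0.69) was higher at 1.5-fold, against 1.38% of all measured rows. The 6 markers of resident peritoneal macrophages, however, were all below the 1 FPKM limit and summed to 1.81 and 2.41 FPKM, with the defining factor Gata6 at 0.607 and 0.618 FPKM. Markers of other cells were far lower than the macrophage list, but all 10 lists of them summed higher in the GW3965 library as deposited, where the median measured row was itself 1.25 times higher. The fibroblast list was the highest of these at 17.5 and 25.7 FPKM, with mesothelium at 4.04 and 6.88, platelets and megakaryocytes at 6.06 and 7.52, and T and NK cells at 0.399 and 0.66. The mast cell list, with no gene measured, summed to 0.614 and 1.48 FPKM, and the dendritic cell list to 0.719 and 1.07. Sums were 2.72 and 4.03 for B cells, 3.8 and 4.45 for neutrophils, 2.02 and 3.03 for eosinophils and 1.96 and 2.06 for endothelium. Relative to the median row, the only measured platelet (Pf4), neutrophil (S100a8) and endothelium (Kdr) markers were lower at -0.06, -0.14 and -0.25. Most other genes of these 3 lists, all below the limit, had ratios above 1.25 as deposited. Such ratios were usual for low rows, whose medians by level were 1.91, 1.48 and 1.35, as given below. No direction is therefore read for these lists. The medians of the 2 measured mesothelium and 5 measured fibroblast markers were 0.31 (0.305) and 0.10. That of the 2 measured B cell markers was 0.05, and the 1 measured eosinophil marker was at 0.15. No marker of those lists was at 0 in either library. The part of these cells in the values of the members was not tested.

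Of the 38 members, 20 were measured: 7 alpha subunits, 5 beta subunits and 8 linkers. The remaining 18 were all between 0.0496 and 0.732 FPKM on average. The talins and kindlins each had a leading member in these cells. Tln1 stood at 125 FPKM in DMSO against 0.107 for Tln2, and the blood cell kindlin Fermt3 at 38.2 FPKM against 0.395 for Fermt2 and 0.034 for the epithelial kindlin Fermt1. Among parvins, Parvb (6.17 FPKM) and Parvg (5.39 FPKM) were measured and Parva (0.187 FPKM) was not. The member nearest above the limit was Itga4 (2.58 FPKM with DMSO, 2.60 with GW3965), and the nearest below was Itga1, a collagen receptor subunit, at 0.593 and 0.871 FPKM.

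**Figure D1:**
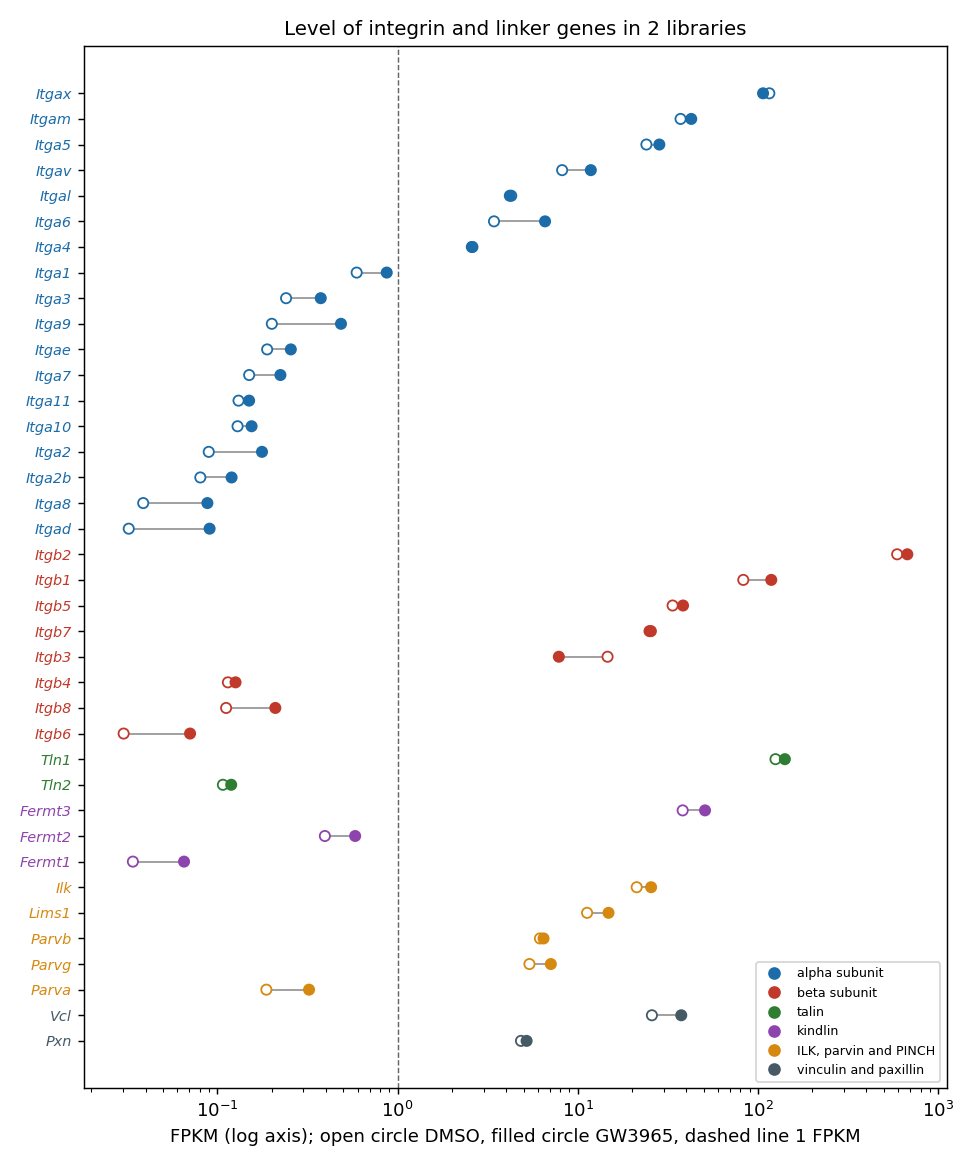
FPKM of the 38 members on a log axis, with an open circle for the DMSO library and a filled circle for the GW3965 library, grouped and coloured by role and ordered by the DMSO level. The dashed line marks 1 FPKM. Itgb3 is the member whose filled circle lies farthest to the left of its open one. All 18 members left of the dashed line have the filled circle on the right, as most other rows at such levels would.

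Promoters from RefSeq (build GRCm38.p6, 250 bases before to 50 after a start) were found for 27 of the 38 members, as 33 windows. The others were Itga6, Itga7, Itgad, Itgae, Itgal, Itgb2, Itgb3, Itgb4, Parva, Pxn and Tln2. The 3 shown are those of Itgav, the partner of Itgb3, and of the myeloid neighbours Itgam and Itgax, whose genes lie next to each other on chromosome 7 and encode the main partners of Itgb2. They were chosen after the levels were seen. Capitals mark GAGGAA, a core site of the macrophage factor PU.1, or GGGCGG, the GC box, each on either strand.
Itgav (chr2:83724147-83724446, plus strand): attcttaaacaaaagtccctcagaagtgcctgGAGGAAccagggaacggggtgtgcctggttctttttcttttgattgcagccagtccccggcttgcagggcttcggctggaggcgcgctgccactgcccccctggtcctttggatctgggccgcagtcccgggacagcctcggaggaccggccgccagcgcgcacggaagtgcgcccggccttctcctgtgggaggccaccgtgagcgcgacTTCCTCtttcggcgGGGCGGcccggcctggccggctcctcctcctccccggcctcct
Itgam (chr7:128062390-128062689, plus strand): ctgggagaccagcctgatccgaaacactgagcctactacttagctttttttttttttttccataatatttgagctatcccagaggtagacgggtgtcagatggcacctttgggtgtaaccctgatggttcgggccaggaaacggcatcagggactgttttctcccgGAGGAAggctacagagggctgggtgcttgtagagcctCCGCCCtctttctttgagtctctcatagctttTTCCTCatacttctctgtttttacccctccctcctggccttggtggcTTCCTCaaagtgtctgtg
Itgax (chr7:128129300-128129599, plus strand): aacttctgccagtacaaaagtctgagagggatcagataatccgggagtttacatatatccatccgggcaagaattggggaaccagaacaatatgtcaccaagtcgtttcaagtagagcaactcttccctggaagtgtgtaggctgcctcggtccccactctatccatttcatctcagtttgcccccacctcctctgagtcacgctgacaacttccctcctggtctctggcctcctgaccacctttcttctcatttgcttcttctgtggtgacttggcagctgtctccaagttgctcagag

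The Itgav and Itgam windows held both motifs, 1 GC box each, and the Itgax window held neither. GAGGAA on either strand was in 8 of 19 windows of measured members (Itga5, Itgam, Itgav, Itgb1, Itgb7, Lims1, Parvg and Tln1), or 42.1%, and in 4 of 14 windows of the low members, or 28.6%. It was in 26.8% of the 8995 windows of all measured genes and in 28.3% of all 32851 windows. The GC box was in 11 of the 19 (57.9%) and 5 of the 14 (35.7%), against 63.9% and 35.7%. AGGTCA, the half-site that nuclear receptors such as LXR bind, was in 0 of the 33 windows against 12.4% of those of all measured genes and 16.3% of all windows. These matches describe the letters of the windows only.

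Between the libraries, Itgb3 was the one member past 1.5-fold. Of 20 measured members 1 was lower, against 0.336% of all measured rows, and 0 were higher, against 1.38%. This contrast chose the set, so nothing is read from these shares. As deposited, without centring, Itgb3 was again the one lower (0.0757% of all measured rows) and Itga6 was higher (3.46%). The median centred log2 ratio of the 20 was -0.05, beside 0 for all measured rows by construction. Of the 19 other than Itgb3, 16 lay within the central 90% of all measured rows, from -0.27 to 0.28, and Itga6, Vcl and Itgax lay outside it.

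**Figure D2:**
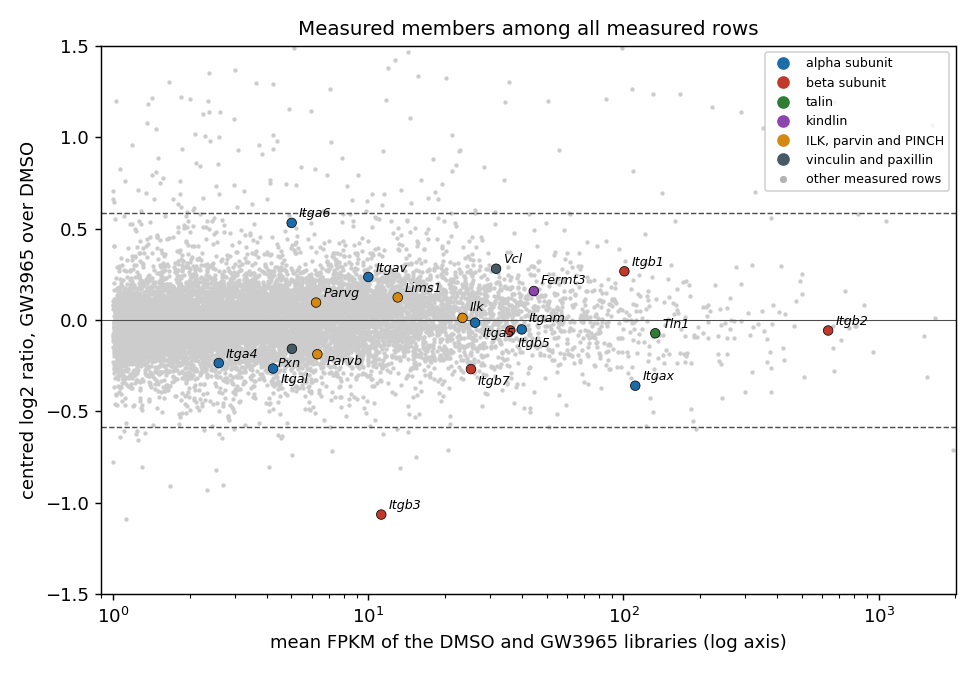
Centred log2 ratio (GW3965 over DMSO) against mean FPKM (log axis) for all measured rows in grey and the 20 measured members in the colour of their role. Dashed lines mark 1.5-fold and 50 rows lie outside the axes. Itgb3 at -1.06 lies below the lower line, Itga6 at 0.53 just under the upper one, and the others lie within the cloud of rows.

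Itgb3, the beta subunit of the vitronectin receptor of macrophages and of the platelet fibrinogen receptor, lies at chr11:104608000-104670476 on the plus strand of GRCm38. Its level was 14.6 FPKM with DMSO, from an estimated 8602 reads, and 7.85 FPKM with GW3965, from 3412 reads. The GW3965 library thus held the lower value, at 0.537 (0.5157 to 0.5585) times the DMSO value, and the centred log2 ratio of -1.06 was the third lowest of the measured rows. In DMSO the gene was above 86.4% of the measured rows. Its platelet partner Itga2b was low in both, with 0.080 and 0.120 FPKM, and of the platelet markers Pf4, which macrophages can also express, made up most of the level, at 4.32 and 5.03 FPKM. The centred value of Pf4 was -0.06, and the part of platelets in the Itgb3 value was not tested.

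Among the other beta subunits, Itgb2, the common subunit of the leukocyte integrins, had the highest level of all members. Its 593 FPKM in DMSO lay above 99.7% of measured rows, and with 675 FPKM in GW3965 the ratio was 1.14 (1.131 to 1.146). Its centred log2 ratio was -0.06, so it lay close to the median row. Itgb1, the partner of the widest range of alpha subunits, had 82.9 and 119 FPKM, which is 1.43 times (1.41 to 1.45) and 0.27 when centred. It was the one measured beta subunit above the median row. Itgb5, another partner of Itgav, had 33.6 and 38.4 FPKM and a centred value of -0.06. Itgb7, the beta subunit of gut-homing lymphocyte integrins, had 25.46 and 25.02 FPKM and a centred value of -0.27. Of all FPKM of beta subunits, Itgb2 held 79.1% in DMSO and 78.0% in GW3965, and Itgb3 1.95% and 0.908%.

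Among alpha subunits the myeloid partners of Itgb2 led. Itgax, known as CD11c, had 116 FPKM in DMSO and 107 in GW3965, or 0.923 times (0.9088 to 0.9366), and a centred value of -0.36. Its neighbour Itgam, known as CD11b, had 37.2 and 42.7 FPKM and a centred value of -0.05. In that locus Itgax was the higher gene in both libraries, by 3.11 times in DMSO and 2.50 times in GW3965. Itgal, the alpha subunit of LFA-1, had 4.275 and 4.198 FPKM and a centred value of -0.27 (as did Itgb7), with a ratio of 0.982 (0.9267 to 1.04) whose interval holds equal values. Itgad, the remaining partner of Itgb2, was close to nil at 0.032 and 0.091 FPKM. In the GENCODE M21 annotation 68.7% of the exon bases of Itgam and 19.7% of those of Itgad are also exons of other genes, and how the authors assigned such reads is not stated in the sources.

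Among partners of Itgb1, Itga5, the fibronectin receptor subunit, had the highest level at 24.1 and 28.4 FPKM and a centred value of -0.01. Itga6, a laminin receptor subunit at chr2:71745616-71858416 on GRCm38, had 3.43 FPKM with DMSO and 6.59 FPKM with GW3965. Its ratio of 1.92 (1.834 to 2.01) was the highest of the measured members, and its centred log2 ratio of 0.53 fell short of 0.585, the log2 of 1.5. As deposited it was 0.78, past that limit. With centring kept it was also past it, at 0.61 with a pseudocount of 0.1 and 0.70 with no filter on low values. The call for Itga6 thus depends on the centring, the pseudocount and the filter. Itgav had 8.19 and 11.8 FPKM, or 1.44 times (1.397 to 1.49), and a centred value of 0.24. Itga4, a receptor subunit for Vcam1 and fibronectin, had nearly equal values, at 1.008 times (0.957 to 1.061), and a centred value of -0.24. Itga5, Itga6 and Itgav together with Itga4 thus made up nearly all of the alpha FPKM that can pair with Itgb1, with shares in DMSO of 60.4%, 8.61%, 20.6% and 6.49% and in GW3965 of 54.7%, 12.7%, 22.8% and 5.02%.

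Of the 8 measured linkers, 7 lay within the central 90% of measured rows and Vcl lay above it. Tln1, the talin of blood cells, had 125 and 141 FPKM, or 1.13 times (1.118 to 1.137), and a centred value of -0.07. Fermt3, its partner in integrin activation, had 38.2 and 50.9 FPKM, or 1.33 times (1.304 to 1.358), and a centred value of 0.16. Vcl, which couples talin to actin, had 25.8 and 37.5 FPKM, or 1.46 times (1.431 to 1.48), and a centred value of 0.28. Vcl shares 25.5% of its annotated exon bases with a neighbouring gene, Ap3m1. Pxn, the paxillin scaffold, had 4.84 and 5.202 FPKM and a centred value of -0.16.

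In the complex on the beta tail, Ilk, a pseudokinase that links the tail to the parvins, had 21.2 and 25.5 FPKM and a centred value of 0.01. In GENCODE M21, 89.7% of the exon bases of Ilk are also exons of Rrp8 or Taf10, so its level rests on how shared reads were counted. Lims1, the PINCH adaptor that binds Ilk, had 11.3 and 14.8 FPKM and a centred value of 0.12. Parvb had 6.17 and 6.46 FPKM and a centred value of -0.19, while Parvg, the parvin of blood cells, had 5.39 and 7.09 FPKM and a centred value of 0.10. The order of the parvins differed between the libraries, with Parvb at 1.14 times Parvg in DMSO and 0.911 times in GW3965. Their intervals in the ratio between libraries were 0.9877 to 1.109 for Parvb and 1.229 to 1.406 for Parvg. These cover counting error only, and both genes lay within the central 90% of measured rows. No change of order between the treatments is read from them.

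The sign of many small values depends on the scaling. As deposited, 16 of the 20 measured members had a ratio above 1 and 4 (Itgb3, Itgax, Itgal and Itgb7) below it. The median measured row had a ratio of 1.25, so ratios above 1 were usual. With 1 FPKM added the median row stood at 1.184 instead, and the centred values are relative to that. On that scale 8 members lay above the median row and 12 below it, where all measured rows split evenly by construction. Ilk, with a ratio of 1.203, was above the one median and below the other. With a pseudocount of 0.1 the centred median of the members was -0.115. Values that need no scaling are ratios of members within a library, and they are given next for the known pairs.

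**Figure D3:**
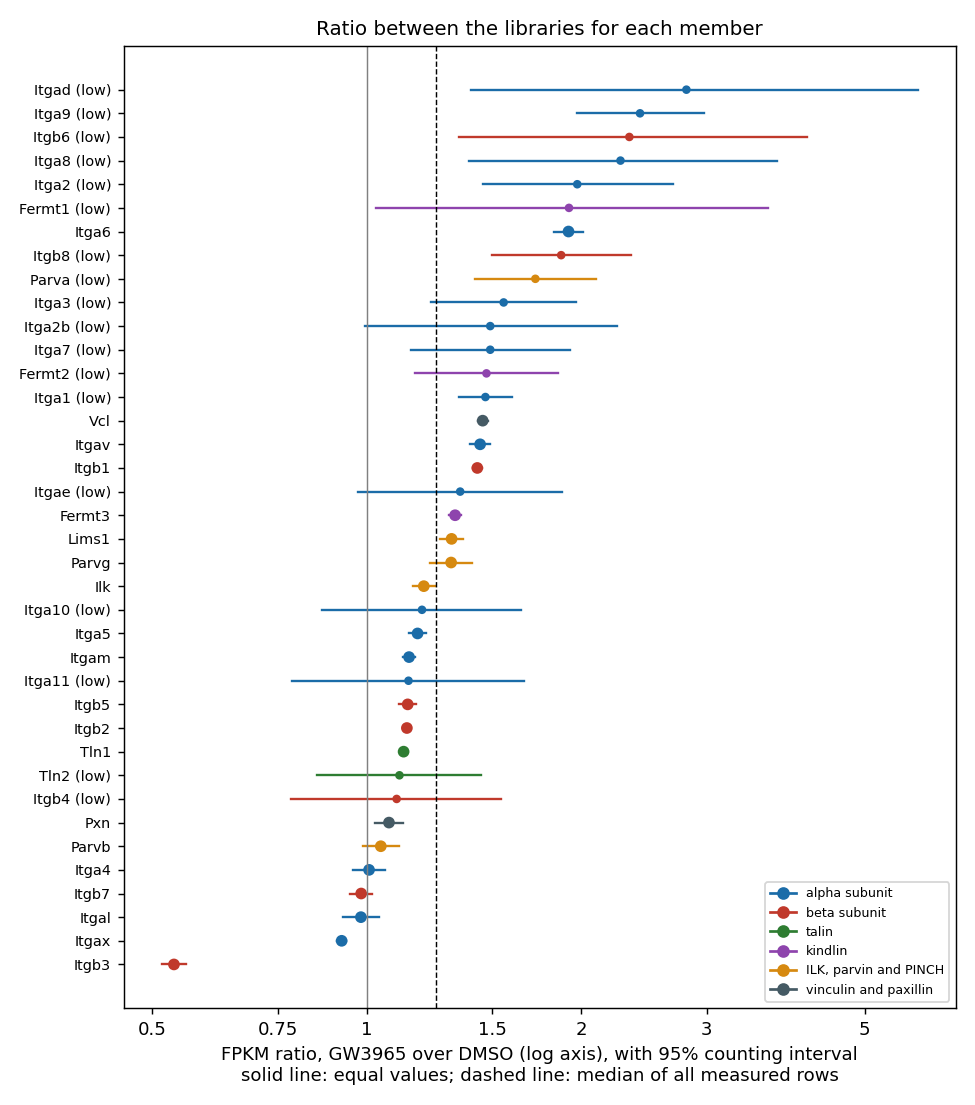
FPKM ratio of GW3965 over DMSO for each member (log axis), coloured by role, with its 95% counting interval; members below 1 FPKM are marked low. The solid line marks equal values and the dashed line 1.25, the median ratio of all measured rows with nothing added. Itgb3 lies alone at 0.537, and the low members have the widest intervals.

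Of 24 known alpha and beta pairs, 10 had both genes measured. In 9 of these the beta gene had the higher level in both libraries. The exception was Itgb3 with Itgav. Itgb3 had 1.79 times the FPKM of Itgav in DMSO and 0.665 times in GW3965, so the order of the pair differed between the libraries. The set was chosen for the low ratio of Itgb3, so this is no separate result. The other pairs stood at 3.45 times or more in DMSO and thus farther from equal levels. Itgb5, a partner of the same alpha chain, had 4.10 times the FPKM of Itgav in DMSO and 3.25 times in GW3965, and Itgb1 10.13 and 10.04 times. Among all beta partners of Itgav, Itgb3 made up 11.1% of the FPKM in DMSO and 4.76% in GW3965, Itgb5 25.6% and 23.3%, and Itgb1 63.2% and 71.8%. The partners Itgb6, an epithelial subunit, and Itgb8 made up 0.023% and 0.0851% in DMSO and 0.0427% and 0.127% in GW3965.

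Among the leukocyte integrins, Itgb2 stood at 15.9 times Itgam in DMSO and 15.8 times in GW3965. Its balance with Itgax was higher in GW3965, at 5.12 and 6.32 times. The pair of Itgal and Itgb2 was the least even, with Itgb2 at 139 and 161 times its partner. Itgb7 had 9.86 and 9.61 times the FPKM of Itga4, its measured partner, while its partner in mucosal T cells, Itgae, was below the limit at 0.189 and 0.256 FPKM. Levels of RNA do not give levels of assembled receptors, which were not measured here.

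**Figure D4:**
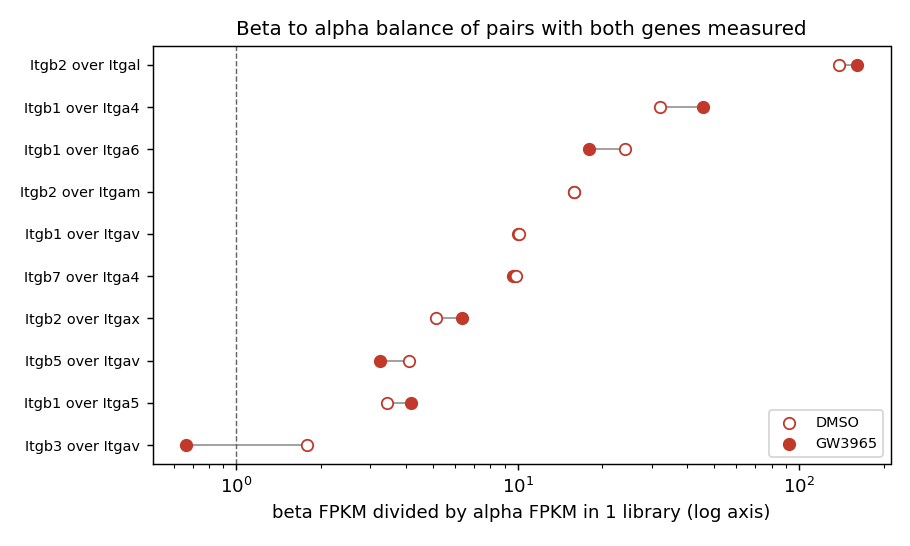
FPKM of the beta gene divided by FPKM of the alpha gene within a library (log axis) for the 10 known pairs with both genes measured, with an open circle for DMSO and a filled circle for GW3965. The dashed line marks equal levels. The Itgb3 and Itgav pair crosses it, from 1.79 to 0.665, and no other pair does. It holds the gene for which the set was chosen.

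The 18 low members were mostly integrins of other tissues. They comprised 11 alpha subunits, 3 beta subunits (Itgb4, Itgb6 and Itgb8), Tln2, Fermt1, Fermt2 and Parva. Itga8 and Itga11, subunits of smooth muscle and fibroblast receptors, had 0.039 and 0.131 FPKM in DMSO and 0.088 and 0.150 FPKM in GW3965. Itgb4, the hemidesmosome subunit that pairs with Itga6, had 0.114 and 0.126 FPKM, so the laminin receptor gene Itga6 was measured without that partner. All 18 had a ratio above 1, with a median of 1.52 and a range from 1.10 to 2.81. Among 22787 other rows in the same range of mean FPKM the median ratio was 1.53, leaving out 744 with a DMSO value of 0. Ratios above 1 were thus usual at these levels and are no trait of the members. By level, the medians of members and other rows were 2.3 and 1.91 below 0.1 FPKM, 1.42 and 1.48 from 0.1 to 0.3 FPKM, and 1.52 and 1.35 from 0.3 to 1 FPKM, on 4, 10 and 4 members.

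Itgad and Itga9, a subunit that pairs with Itgb1, had the highest ratios of the low members. Itga9 had 0.201 and 0.485 FPKM, from about 151 and 270 reads, so its ratio was 2.42 (1.975 to 2.972). Itgad rested on 13 and 27 reads, with a ratio of 2.81 (1.401 to 5.932). For 6 of the 18 the interval included equal values, namely Itga10, Itga11, Itga2b, Itgae, Itgb4 and Tln2. The share of other low rows with such intervals was not computed. Among genes of another tissue, 1083 olfactory receptor rows had a median of 0.0261 FPKM with DMSO and 0.069 with GW3965. The part of that shift in the low members was not tested.

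Of a list of 54 kinases, adaptors and GTPase regulators of integrin signalling, 48 were measured, and 0 were higher (1.38% of all measured rows) and 0 lower (0.336%). Their median centred log2 ratio was -0.03, and 38 lay within the central 90% of measured rows, with 3 above it and 7 below. The values farthest from 0 belonged to Src-family kinases, which relay integrin signals in myeloid cells. Fgr had 3.25 and 6.49 FPKM, just under the limit when centred and past it as deposited. Src had 4.25 and 3.21 FPKM, with a centred value of -0.56. Csk, the kinase that restrains this family, had 11.2 and 10.4 FPKM and a centred value of -0.34, and Git1, a paxillin-binding scaffold, 6.97 and 6.07 FPKM and -0.42.

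Of 40 integrin ligands, 39 had a row and 10 were measured, with a median centred log2 ratio of -0.14. Of these 10, 0 were higher (1.38% of all measured rows) and 0 lower (0.336%). Within the central 90% of measured rows lay 6, with 1 above it and 3 below. Spp1 (osteopontin), a ligand of Itgav receptors, had 598.5 and 1059 FPKM and a centred value of 0.58, just under the limit and past it as deposited. Mfge8, the bridge from Itgav receptors to dying cells, had 674 and 659 FPKM and a centred value of -0.28. Tgfb1, whose latent form Itgav receptors hold, had 20.6 and 17.8 FPKM and a centred value of -0.44. Vwf, the clotting factor that binds the platelet receptor, had 3.42 and 3.13 FPKM and a centred value of -0.34. So the ligands Spp1 and Mfge8 were both abundant in the cells themselves, and the libraries differed in Spp1 more than in Mfge8.

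All 20 genes of cell surface partners of integrins were measured, with a median centred log2 ratio of -0.12. Of these, 0 were higher (1.38% of all measured rows) and 0 lower (0.336%). Within the central 90% of measured rows lay 15, with 2 above it and 3 below. Cd36, a scavenger receptor, had 276.5 and 484 FPKM and a centred value of 0.56, and Cd47, which binds Itgav receptors, 23.1 and 35.8 FPKM and 0.37. Both had a log2 ratio past the limit as deposited. Lrp1, an endocytic receptor, had 46.9 and 39.0 FPKM and a centred value of -0.50. Plaur, the urokinase receptor that lies beside integrins on the membrane, had 59.4 and 52.8 FPKM and a centred value of -0.41.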

How the data were processed

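RNA of 2 samples was compared, 1 per group. The authors deposited FPKM values in 1 column per library. Per the submitters' processing notes the tools were STAR 2.3.0 and HTSeq 0.5.4p3 with build GRCm38 (mm10), in no stated role. Annotation, strand setting and treatment of shared reads were not stated in the sources used here. Whole reads and depths were recovered from the FPKM steps. At the recovered depths, 99.8% of 2000 measured rows had a gene length at which both values were whole reads within the rounding of the sixth decimal, against 7.35% when the DMSO depth was moved by 0.01%. Of the possible lengths, the one nearest to the GENCODE M21 exon length less 99 bases was taken, so reads are estimates. The intervals of the ratios rest on these reads, and a smaller length would give fewer reads and a wider interval. Itga6 had 33 possible lengths, the smallest 601 bases against 9015 used. Itgb3 had 6, the smallest 2885 against 5770 used. The recovery of depths and of possible lengths was tested on simulated data. The choice of 1 length among them was not. For a 1 kb gene a read was worth 0.00982 FPKM (DMSO) or 0.0133 FPKM (GW3965).

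The log2 ratio used a pseudocount of 1 FPKM, a mean of at least 1 FPKM and the median of the measured rows as 0. No test was run. All members are named, with up to 4 measured genes per pathway list by the size of the centred value. Markers are given as sums, with a few single genes (Lyz2, Mertk, Csf1r, Cd68, Gata6, Pf4, S100a8, Kdr) picked after their values were seen. Members and lists were chosen with earlier results of these data known. Alternatives were values as deposited, pseudocounts of 0.1 and 0.5, no filter, a mean of at least 5 FPKM, equal sums, equal upper quartiles, centring without NONCODE, Gm and Rik rows, and a 2-fold limit. A comparison of protein tails was planned and was not run. The tools were matplotlib 3.10.9, scipy 1.17.1, pandas 2.3.3 and numpy 2.4.6 under Python 3.11.15.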

Additional observations from a re-analysis of the deposited data

How the results depend on the processing

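No paired analysis was possible because there was 1 library per group, and for the same reason no library could be left out. The count of lower members, 1 (Itgb3), was 0 with equal sums of FPKM, where its log2 ratio was -0.58, just short of the limit, and 1 under the other 8 alternatives, over which its value ran down to -1.20. The count of higher members, 0, became 1 (Itga6) as deposited (3.46% of all measured rows), with a pseudocount of 0.1 and with no filter. It was 6 with equal sums. The share of all rows called was computed only for the main setting and as deposited. Nothing is thus read from the counts under other settings, of members here or of lists below. The median of the members went from -0.05 to 0.19 as deposited and 0.46 with equal sums (0.455). As deposited, the signalling, ligand and surface partner lists had 1, 1 and 2 genes higher of 48, 10 and 20 measured. The share of all measured rows was 3.46%. The medians of the lists were 0.22, 0.10 and 0.13 (0.216, 0.104 and 0.125). With no filter these lists had 1 gene higher each, with medians of 0.12, 0.02 (0.018) and 0.05 (0.053). The signalling list had 1 higher and 1 lower gene with a pseudocount of 0.1 or 0.5. Of 158 values of single members under the alternatives, 148 stayed on their side of 1.5-fold, 9 passed it and 1 lost it, and none of those past it changed sign. Of the measured members, 12 had a sign that changed with the setting. The cause of these changes was not tested. Depth limits the low members, which rest on 13 to 1056 reads in DMSO.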
